A study of Mus musculus with 36 samples.

Results

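In the mouse hippocampus, 8 MAP kinase phosphatase genes of the Dusp family were examined: Dusp1, Dusp4, Dusp5, Dusp6, Dusp7, Dusp8, Dusp14 and Dusp16. They are a part of the family, and its other genes are described below as a list. These 8 genes, of 24060 gene symbols with RNA counts, were taken by name, with earlier results of these data known. The H2A.Z peaks that the authors assigned to them within 1000 bp of a transcription start site were taken with them, 10 of 12204 such promoter peaks. Old mice were 15.5 months of age and young mice 2.5 months, all C57BL/6J according to the labels. Conditioned mice received 3 shocks of 0.5 mA for 2 s each in a fear conditioning session of 5 min, and brains were frozen 30 min after training. Naive mice were the comparison at each age. The RNA data were 12 libraries, 3 each from old conditioned, old naive, young conditioned and young naive hippocampi, and H2A.Z was immunoprecipitated in 12 further libraries with the same grouping. The labels do not say whether the libraries of a group came from separate animals or from pools, so p-values here describe only how far these libraries spread.

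MAP kinases (ERK, JNK and p38) are switched on by phosphorylation of a threonine and a tyrosine in their activation loop, and dual-specificity phosphatases switch them off by removing both phosphates. Many of these phosphatases are themselves transcribed in answer to MAP kinase activity, which makes them feedback brakes. In the hippocampus ERK signalling is known for its role in synaptic plasticity and in the consolidation of fear memory. DUSP1, DUSP4 and DUSP5 act in the nucleus: DUSP1 dephosphorylates p38, JNK and ERK, DUSP4 acts on ERK and JNK, and DUSP5 is specific for ERK. DUSP6 and DUSP7 act on ERK in the cytoplasm. DUSP8 and DUSP16 prefer JNK and p38, and DUSP14 is a small atypical member that lacks the MAP kinase docking domain of the others. H2A.Z is a variant of histone H2A that replaces it in nucleosomes, often beside transcription start sites.

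The promoters below are those of Dusp1, Dusp5 and Dusp6, whose RNA differed most in its training values, and of Dusp8. That of Dusp8 is shown because it holds a full cAMP response element, as that of Dusp1 does. Each printed promoter is the 250 bases upstream of the RefSeq start site, from RefSeq on GRCm38.p6 (mm10), written 5′ to 3′ along the gene. Capitals mark the cAMP response element (CRE) TGACGTCA, its core TGACG on either strand, and the CArG box, the element bound by serum response factor. CREB, which binds the CRE, and the partners of serum response factor are phosphorylated downstream of ERK.
Dusp1, chr17:26508473-26508722, minus strand: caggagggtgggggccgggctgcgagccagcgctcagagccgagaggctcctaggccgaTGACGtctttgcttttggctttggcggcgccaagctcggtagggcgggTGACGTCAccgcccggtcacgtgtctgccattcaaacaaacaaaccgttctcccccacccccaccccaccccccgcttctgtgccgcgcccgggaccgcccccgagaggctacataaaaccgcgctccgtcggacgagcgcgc
Dusp5, chr19:53528895-53529144, plus strand: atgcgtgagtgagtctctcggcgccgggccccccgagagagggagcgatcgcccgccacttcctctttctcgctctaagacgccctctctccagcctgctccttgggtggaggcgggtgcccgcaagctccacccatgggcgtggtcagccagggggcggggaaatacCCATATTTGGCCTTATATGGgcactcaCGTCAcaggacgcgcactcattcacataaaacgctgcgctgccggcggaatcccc
Dusp6, chr10:99262981-99263230, plus strand: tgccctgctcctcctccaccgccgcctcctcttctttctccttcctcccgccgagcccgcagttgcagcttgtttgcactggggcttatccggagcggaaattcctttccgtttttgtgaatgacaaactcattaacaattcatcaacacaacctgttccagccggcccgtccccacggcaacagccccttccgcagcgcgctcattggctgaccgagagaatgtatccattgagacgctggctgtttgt
Dusp8, chr7:142095285-142095534, minus strand: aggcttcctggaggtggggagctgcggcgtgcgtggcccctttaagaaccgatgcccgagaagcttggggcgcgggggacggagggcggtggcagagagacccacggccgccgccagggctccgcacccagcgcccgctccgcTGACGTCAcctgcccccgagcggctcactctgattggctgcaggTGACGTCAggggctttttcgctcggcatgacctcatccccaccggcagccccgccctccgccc

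The Dusp1 promoter held 1 full CRE, 143 to 136 bases upstream of the start, and a separate core 191 to 187 bases upstream. The Dusp8 promoter held 2 full CREs, at 107 to 100 and at 63 to 56 bases upstream. The Dusp5 promoter held 2 adjoining CArG boxes, at 82 to 73 and 72 to 63 bases upstream, and a CRE core on the other strand at 55 to 51. The Dusp16 promoter, which is not printed, held 1 CRE core at 70 to 66 bases upstream, and none of the searched letters stood in the windows of Dusp6, Dusp7 and Dusp14. Both strands of 32851 RefSeq promoter windows of the same length were searched: 1.55% held a full CRE and 0.0304% held 2 or more, 17.8% held a CRE core (each full CRE counts as 2 cores), and 1.47% held a CArG box and 0.0183% held 2 or more. The 7 Dusp windows held 56.4% (Dusp6) to 77.2% (Dusp7) G and C, against a median of 52.4% over all windows, and the shares were not matched for this. These are matches of letters, not measured binding sites. The promoter table had 7 of the 8 genes, all but Dusp4.

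The libraries held 9410843 to 13350561 counts, and 14405 genes, among them all 8 Dusp genes, passed the filter on low counts. All 8 markers of hippocampal excitatory neurons were measured in every library, with Camk2a at 3829 to 4813 CPM (read counts over the scaled library size) and Prox1, a dentate granule cell marker, at 92.5 to 128 CPM. The 16 markers of choroid plexus, all measured, summed to 265 to 430 CPM in old conditioned, 440 to 3082 CPM in old naive, 275 to 3708 CPM in young conditioned and 514 to 4920 CPM in young naive libraries. The 7 nuclear-retained RNAs summed to 7345 to 13024 CPM in old conditioned, 8423 to 14801 CPM in old naive, 12693 to 16012 CPM in young conditioned and 9441 to 20153 CPM in young naive libraries. Young naive library 79 had the highest Fos value among the 6 naive libraries, 10.2 CPM against 2.44 and 2.81 CPM in the other young naive libraries, and its Arc value of 136 CPM also stood above their 59.9 and 55.0 CPM. In bulk tissue, fewer cells of a type and less RNA per cell cannot be told apart.

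At 30 min after conditioning, Dusp1 RNA was about doubled and was the one of the 8 Dusp transcripts whose difference passed the test at either age. In old mice Dusp1 stood at 20.2, 17.3 and 16.5 CPM in conditioned libraries, against 7.89, 10.3 and 7.98 CPM in naive libraries. In young mice it stood at 17.9, 17.0 and 17.5 CPM in conditioned libraries, against 9.75, 7.03 and 7.94 CPM in naive libraries. Every conditioned library lay above every naive library, across both ages. The log2 fold change was 1.05 in old mice (SE 0.137, edgeR quasi-likelihood test, Benjamini-Hochberg adjusted p = 0.0115) and 1.10 in young mice (SE 0.139, adjusted p = 0.00492). Averaged over both ages it was 1.07 (95% CI 0.87 to 1.28, edgeR adjusted p = 6.06e-05), the smallest p of all 14405 genes tested. The response of old mice less the response of young mice was -0.05 (95% CI -0.47 to 0.36, edgeR adjusted p = 0.971). No member's response passed a test of the difference between the ages, and 0% of all genes did.

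Dusp1 was thus 1 of 8 members with an adjusted p under 0.05 and a higher value in conditioned mice, against 0.0139% of all tested genes in old mice, 0.0278% in young mice and 0.0764% over both ages. The members and lists were chosen with earlier results of these data known. Shares of all genes, here and below, are therefore given as description and not as a test. The call at one age depended on which libraries were used, while its direction did not. In old mice the adjusted p rose to 0.0930 without conditioned library 61, 0.0852 without conditioned library 63, 0.105 without naive library 67 and 0.117 without naive library 71 (log2 0.96 to 1.07, edgeR), and to 0.103 with the choroid plexus score as a covariate (log2 1.01). In young mice it rose to 0.0522 without conditioned library 73 and 0.0733 without naive library 83 (both log2 1.08, edgeR), and to 0.111 when only the young libraries were fitted.

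**Figure D1:**
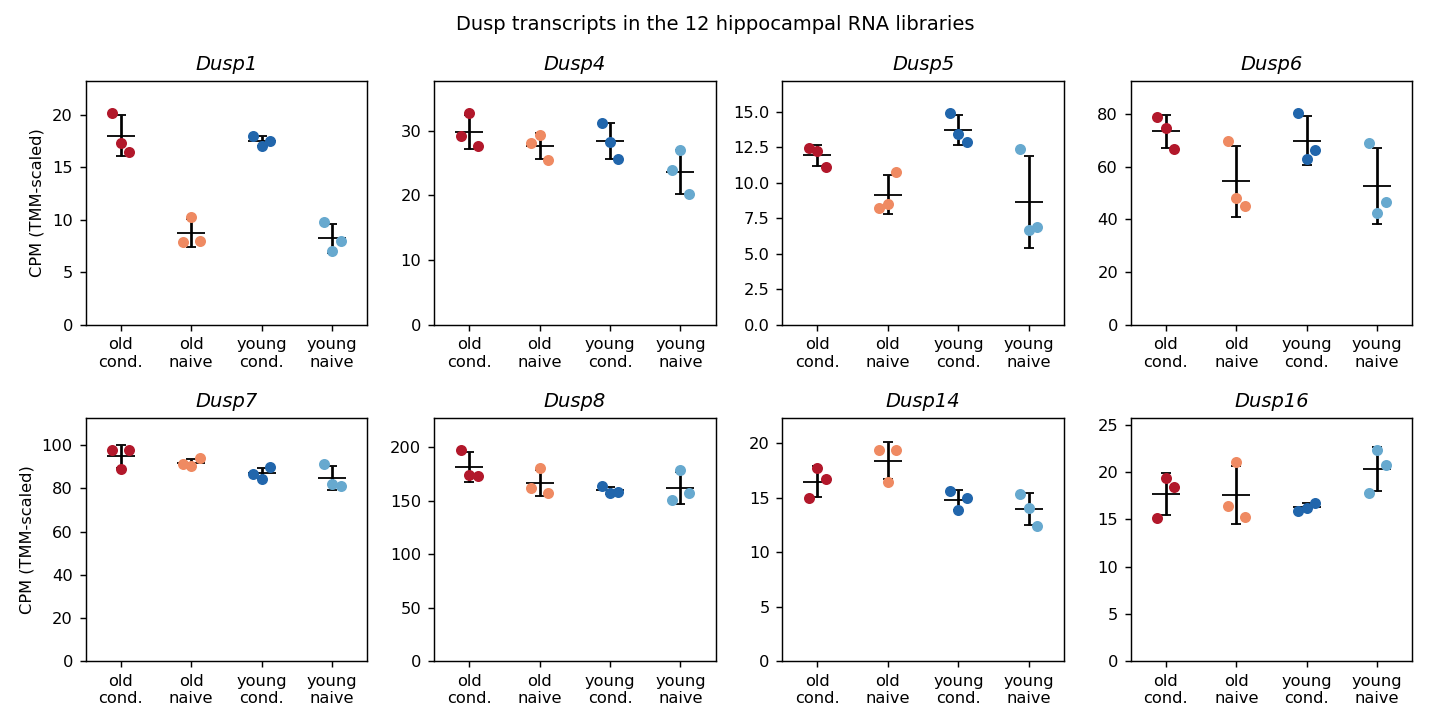
RNA level of each Dusp gene in CPM (vertical axis, from 0) in every library of the 4 groups, with the group mean and SD (n = 3) as black bars. The 6 conditioned libraries hold Dusp1 at 16.5 to 20.2 CPM and the 6 naive libraries at 7.03 to 10.3 CPM, while conditioned and naive libraries overlap at both ages for Dusp4, Dusp6, Dusp7, Dusp8 and Dusp14.

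Dusp5, the nuclear phosphatase specific for ERK, was higher in conditioned than in naive libraries at each age but did not pass the adjusted test. In old mice it stood at 12.5, 12.2 and 11.1 CPM in conditioned libraries, against 8.20, 8.53 and 10.8 CPM in naive libraries. In young mice it stood at 14.9, 13.4 and 12.9 CPM in conditioned libraries, against 12.4, 6.64 and 6.87 CPM in naive libraries. The groups did not overlap at either age, and 12.4 CPM in young naive library 79, the library with the raised Fos, came close to the conditioned range. Dusp1 and Dusp5 were the 2 of 8 members with conditioned libraries entirely above naive ones, against 6.57% of genes in old and 7.14% in young mice. Over all 12 libraries Dusp1 alone kept that separation, against 0.174% of genes.

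For Dusp5 the log2 fold change was 0.38 in old mice (SE 0.191, edgeR adjusted p = 0.706), 0.70 in young mice (SE 0.191, edgeR adjusted p = 0.730) and 0.54 over both ages (95% CI 0.25 to 0.83, edgeR adjusted p = 0.418). Without library 79 it was 1.03 in young mice (SE 0.148, edgeR adjusted p = 0.00687) and 0.71 over both ages (edgeR adjusted p = 0.00272). That library held the highest Dusp5 of the young naive libraries, so leaving it out raises the difference. The fit without library 79 called 25 genes higher and 5 lower over both ages, against 11 higher with all libraries. Leaving out single libraries gave Dusp5 differences of 0.54 to 1.03 in young mice and 0.46 to 0.71 over both ages. These passed only without library 79. With the choroid plexus covariate the Dusp5 difference was 0.19 in old and 0.65 in young mice. The age of the mice made a difference of -0.31 to the training effect (old minus young, 95% CI -0.89 to 0.26, edgeR adjusted p = 0.828), which did not pass. With single libraries left out it ran from -0.64, without young naive library 79, to -0.16, without young naive library 81, and passed in none of these fits.

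Dusp4, the nuclear phosphatase of ERK and JNK, averaged 29.8 ± 2.66 CPM in old conditioned and 27.6 ± 1.98 CPM in old naive libraries, and 28.4 ± 2.80 CPM in young conditioned and 23.7 ± 3.39 CPM in young naive libraries (SD, n = 3 each). The ranges overlapped at both ages. The difference over both ages was 0.19 (95% CI 0.02 to 0.36, edgeR unadjusted p = 0.0330, adjusted p = 0.711).

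Dusp6, a cytoplasmic phosphatase of ERK and a classical feedback target of that kinase, differed by 0.42 over both ages on the log2 scale (95% CI 0.17 to 0.68), with rank 77 of 14405 genes by p and no call (edgeR adjusted p = 0.576). It stood at 78.8, 74.6 and 66.5 CPM in old conditioned libraries, against 69.9, 48.1 and 45.2 CPM in old naive ones. In young mice it stood at 80.4, 62.9 and 66.2 CPM in conditioned libraries, against 68.9, 42.2 and 46.7 CPM in naive ones. One naive library at each age, 67 in old and 79 in young mice, reached the conditioned range. Those were also the naive libraries of their age with the highest Arc (93.1 CPM in 67 and 136 CPM in 79). Library 79 had in addition the lowest total of all libraries (9410843 counts) and the highest sum of nuclear-retained RNAs (20153 CPM). With the nuclear-retained RNA score as a covariate the Dusp6 difference was 0.425 in old and 0.427 in young mice, against 0.426 and 0.421 without it. Whether the Arc values or the library total go with the Dusp6 values was not tested. Without library 79 the Dusp6 difference over both ages was 0.54 (SE 0.103, edgeR adjusted p = 0.0427). That library held the highest Dusp6 of the young naive libraries. With single libraries left out the Dusp6 difference over both ages ran from 0.36 to 0.54, and it passed only without library 79.

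Dusp7, the other cytoplasmic ERK phosphatase, averaged 94.8 ± 5.28 CPM in old conditioned and 91.8 ± 1.87 CPM in old naive libraries, and 86.8 ± 2.68 CPM in young conditioned and 84.6 ± 5.67 CPM in young naive libraries (SD, n = 3 each). Its training difference over both ages was 0.04, with a 95% interval of -0.06 to 0.14. A change of more than 0.14 on the log2 scale therefore lay outside that interval, whereas the interval of Dusp5 began at 0.25 and that of Dusp6 at 0.17. These intervals are not adjusted for the number of genes, and Dusp5 and Dusp6 did not pass the adjusted test. The genes were not tested against each other.

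Of the phosphatases that prefer JNK and p38, Dusp8 averaged 182 ± 14.2 CPM in old conditioned and 167 ± 12.1 CPM in old naive libraries, and 160 ± 3.51 CPM in young conditioned and 162 ± 14.8 CPM in young naive libraries (SD, n = 3 each). Its difference over both ages was 0.05 (95% CI -0.06 to 0.16). Its promoter, printed above, carries 2 full CREs, and whether they bear on its RNA was not tested. Dusp16 was the one member with a lower value in conditioned mice at an unadjusted p under 0.05, which it had in young mice. It stood at 15.9, 16.2 and 16.7 CPM in young conditioned libraries, against 17.8, 22.4 and 20.8 CPM in young naive ones, with no overlap. The difference was -0.33 (SE 0.131, edgeR unadjusted p = 0.0246, adjusted p = 0.730), where 3.18% of genes were lower at that unadjusted level and 5.64% had conditioned libraries entirely below naive ones. In old mice the Dusp16 difference was 0.01 (SE 0.132), and the difference between the ages, 0.33 (95% CI -0.06 to 0.73, edgeR adjusted p = 0.726), did not pass.

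The atypical Dusp14 averaged 16.5 ± 1.41 CPM in old conditioned and 18.4 ± 1.72 CPM in old naive libraries, and 14.8 ± 0.904 CPM in young conditioned and 13.9 ± 1.49 CPM in young naive libraries (SD, n = 3 each). Its training difference was -0.16 in old mice and 0.09 in young mice, each within its 95% interval of 0 (-0.40 to 0.08 in old and -0.15 to 0.34 in young mice). Over the 8 members the median training difference was 0.12 over both ages, with 6 of 8 above 0, against a median of 0.00 over all genes. The 4 members with an unadjusted p under 0.05 over both ages (Dusp1, Dusp4, Dusp5 and Dusp6) were all higher, against 2.82% of all genes.

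**Figure D2:**
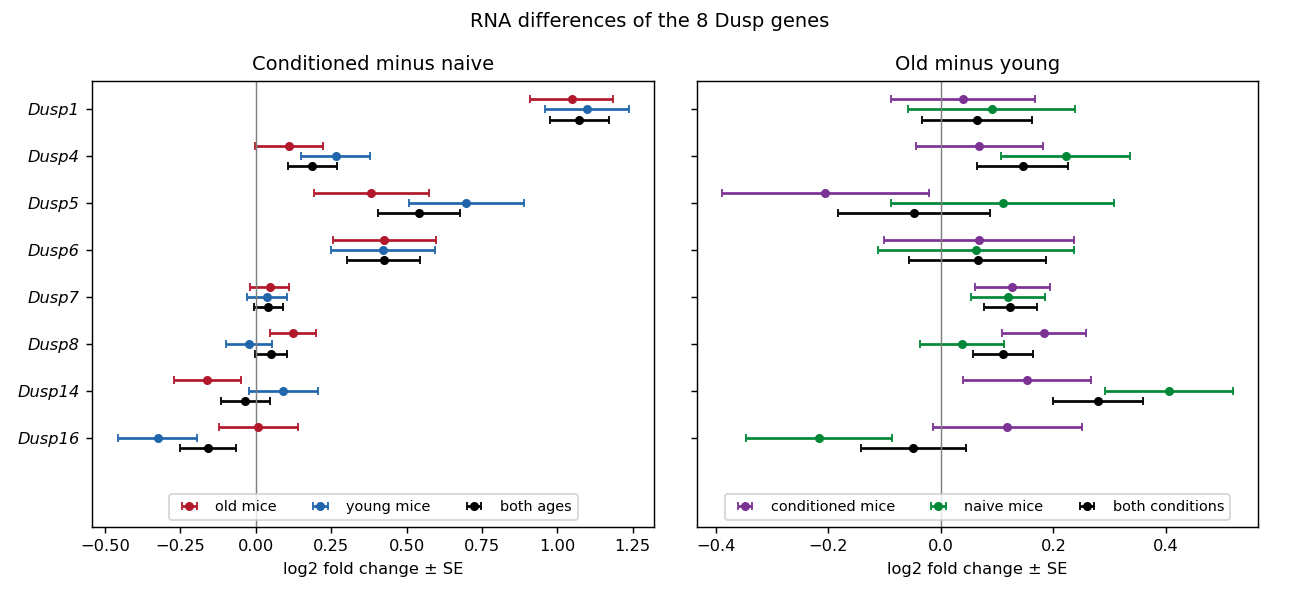
Log2 fold changes (points) with standard errors (bars) of the 8 Dusp genes, conditioned minus naive on the left and old minus young on the right. Dusp1 lies near 1 in the training panel at both ages (1.05 in old and 1.10 in young mice) and near 0 in the age panel, where Dusp14 in naive mice has the highest value, 0.41.

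Between old and young mice no Dusp transcript passed an adjusted p of 0.05 in edgeR, and at an unadjusted p under 0.05 Dusp14 and Dusp7 were higher in old mice over both conditions, 2 of 8 against 7.33% of all genes. The share of all genes that passed was 0.0347% in conditioned mice, 0.0555% in naive mice and 0.375% over both conditions. Dusp14 came nearest. In naive mice it stood at 19.4, 16.4 and 19.4 CPM in old libraries, against 15.4, 14.1 and 12.4 CPM in young ones, without overlap (log2 0.41, SE 0.114, edgeR unadjusted p = 0.00259, adjusted p = 0.303). Over both conditions the Dusp14 difference was 0.28 (95% CI 0.11 to 0.45, edgeR adjusted p = 0.125). Old libraries lay entirely above young ones for 7.09% of genes in naive mice.

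Between old and young conditioned mice Dusp8 and Dusp5 did not overlap, 2 of 8 members against 23.1% of all genes. Dusp8 stood at 198, 174 and 173 CPM in old conditioned libraries, against 164, 158 and 158 CPM in young conditioned ones (log2 0.18, SE 0.0752, edgeR adjusted p = 0.322). Dusp5 was lower in old conditioned libraries by its per-library values above (log2 -0.21, SE 0.184, edgeR adjusted p = 0.650). Dusp7 had a small difference over both conditions, with 93.3 ± 3.89 CPM in old and 85.7 ± 4.14 CPM in young libraries (SD, n = 6 each), a log2 difference of 0.12 (95% CI 0.02 to 0.22, edgeR adjusted p = 0.211). Dusp1 differed by 0.06 with age over both conditions (95% CI -0.14 to 0.27). Markers of other cells differed between the same groups: 8 microglial markers summed to 325 to 349 CPM in the 6 old and 270 to 321 CPM in the 6 young libraries, and 10 endothelial markers to 207 to 233 CPM in old and 178 to 194 CPM in young libraries. Their part in the age values was not tested.

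The genes whose profile over the 12 libraries was most like that of Dusp1 were Egr4, Fosb, Cyr61, Sik1 and Junb. Likeness was measured as the root-mean-square difference of log2 CPM after centring each gene on its mean, which was 0.19 for Egr4, 0.20 for Fosb, 0.21 for Cyr61 and 0.23 for Sik1 and for Junb, against a median of 0.56 over 12963 genes. Egr4, Fosb and Junb code for transcription factors, Sik1 for a salt-inducible kinase and Cyr61 for a secreted matrix protein. Their own training differences over both ages were 0.86 (Egr4), 1.12 (Fosb), 1.06 (Cyr61), 0.80 (Sik1) and 1.02 (Junb), beside 1.07 for Dusp1. The genes were chosen for likeness to Dusp1 in these same libraries, so training differences near its own follow from the choice. Fosb averaged 16.2 ± 1.97 CPM in conditioned and 7.44 ± 0.926 CPM in naive libraries, and Sik1 22.1 ± 3.04 CPM in conditioned and 12.6 ± 1.04 CPM in naive libraries (SD, n = 6 each).

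The rest of the MAP kinase system was followed with lists of genes. Of 18 further genes of the dual-specificity phosphatase family, 12 were tested and none was called under conditioning over both ages in edgeR, none had an unadjusted p under 0.05, and the median difference was 0.06. Dusp2, Dusp9, Dusp13, Dusp21, Dusp27 and Styxl1 had too few counts for a test. The smallest p in that list belonged to Dusp11, an RNA phosphatase, at -0.19 (SE 0.0966). Dusp22 at 0.09, Dusp12 at -0.13, Dusp15 at 0.11 and Styx, a catalytically inactive relative, at -0.08 also did not pass.

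Among 27 genes of the ERK cascade none was called over both ages, the median was 0.01, and an unadjusted p below 0.05 was found for 3 genes with higher and 1 with lower values, against 6.99% of all tested genes in either direction. These were Nras at 0.14, Araf at 0.11 and the adaptor gene Grb2 at 0.10, and Nf1, which codes for an inhibitor of Ras, at -0.11. Of 25 genes of the JNK, p38 and ERK5 branches 24 were tested, none was called, and the median was 0.00, with the kinase gene Map3k5 at -0.14, Mapk7 (ERK5) at 0.15 and Mapk10 (JNK3) at 0.09. Of 12 genes of other brakes on the pathway 10 were tested and none was called (median 0.05). Errfi1, an inhibitor of the EGF receptor, had the smallest p there, with 49.9 ± 4.50 CPM in conditioned and 39.8 ± 5.89 CPM in naive libraries (SD, n = 6 each), a log2 difference of 0.33 (SE 0.0874, edgeR adjusted p = 0.478). The Sprouty genes stood at 0.24 for Spry4 and -0.10 for Spry2, and Spred2 at 0.04.

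Of 14 early genes whose transcripts are known to follow MAP kinase activity, 5 rose with conditioning over both ages at an adjusted p under 0.05 in edgeR, against 0.0764% of all genes, and 10 were higher at an unadjusted p under 0.05, against 2.82% of all genes. Their median log2 difference was 0.88, against 0.12 for the 8 Dusp members. The 5 were Fos at 2.06 (SE 0.259, edgeR adjusted p = 0.00199), Fosb at 1.12 (SE 0.103, adjusted p = 6.06e-05), Junb at 1.02 (SE 0.133, adjusted p = 0.00231), Egr4 at 0.86 (SE 0.109, adjusted p = 0.00199) and Arc at 1.04 (SE 0.180, adjusted p = 0.0407). Egr3 at 0.28 was not called, and Etv4, a target of growth factor signalling through ERK, stood at -0.02. With age, 1 gene of the ERK cascade and none of the other lists was called over both conditions. It was Rasgrf1, a calcium-dependent activator of Ras, at 626 ± 25.2 CPM in old and 547 ± 22.2 CPM in young libraries (SD, n = 6 each), a log2 difference of 0.20 (SE 0.0406, edgeR adjusted p = 0.0491). By the smallest p with age, Mapk3 (ERK1) stood at 0.18 and Grb2 at 0.13, Map3k11 at 0.20, Mapk8ip2 at 0.12, Map3k10 at 0.13 and Spred2 at 0.12, and Dusp15 at -0.30, Styx at -0.25 and Dusp11 at -0.20, none of them called.

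**Figure D3:**
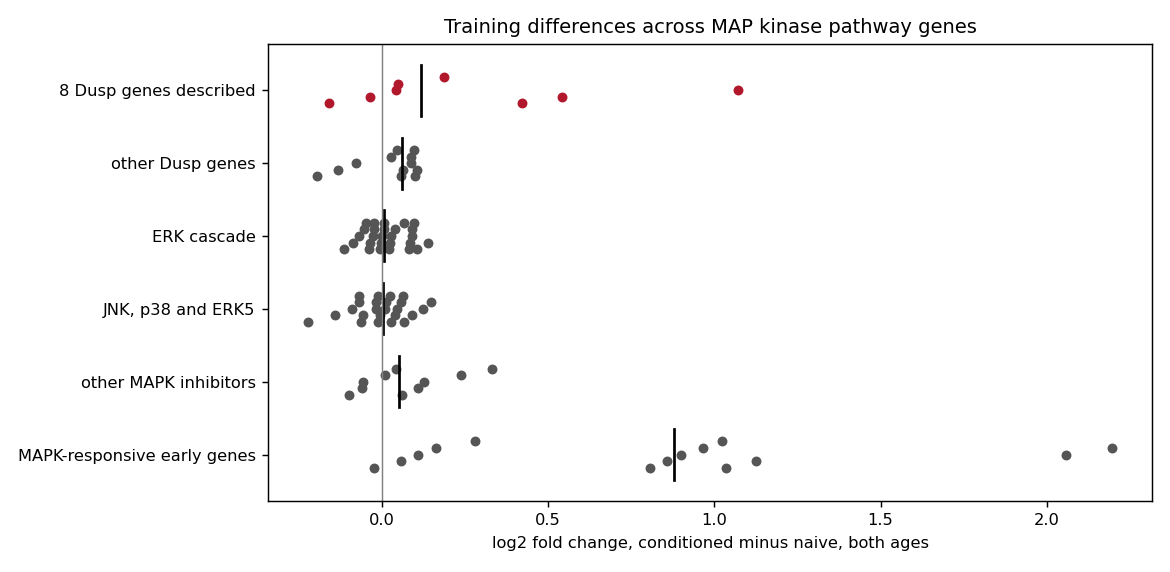
Log2 differences of conditioned minus naive over both ages (horizontal axis) for each tested gene of the MAP kinase lists (points), with the median of each list. The 14 early genes have a median of 0.88, whereas the medians of the phosphatase, cascade and brake lists lie between 0.00 and 0.12.

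In chromatin, every one of the 8 genes had at least 1 H2A.Z peak at its promoter in the authors' deposited table. Such a peak was common: 11646 genes had one, where 24060 gene symbols had RNA counts and 14405 were tested. The share among the tested genes was not counted. The Dusp1 peak spanned chr17:26507640-26509040 and the Dusp5 peak chr19:53528564-53530163, each covering the start site and the whole 250-base promoter shown above. Dusp6 had a promoter peak at chr10:99263006-99264263, Dusp8 at chr7:142094254-142096128, Dusp4 at chr8:34806826-34810093 and Dusp14 at chr11:84067956-84068779 (mm10). Dusp7 and Dusp16 had 2 promoter peaks each, at chr9:106367400-106367946 and chr9:106368170-106369516 for Dusp7 and at chr6:134792808-134793255 and chr6:134791768-134792557 for Dusp16. Of 11646 genes with a promoter peak, 4.57% had 2 or more. The 10 peaks were 447 to 3267 bp wide with a median of 1301.5 bp, against a median of 985 bp over all promoter peaks, and the widest was that of Dusp4.

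Of the marks around the peaks, only H3K27me3 set Dusp1 apart from all other members. In lacking it Dusp1 was like most promoter peaks of all genes. By the authors' deposited table, H3K27me3, the mark of Polycomb repression, covered part of 9 of the 10 promoter peaks, against 34.8% of all promoter peaks. The exception was Dusp1, whose nearest such region lay 66836 bp away. Regions of H3K4me3, the mark of active promoters, were overlapped by 9 of the 10 peaks (93.8% of all promoter peaks), H3K27ac by 8 (66.8%; not Dusp5 and Dusp14) and H3K4me1 by 9 (86.7%). The sources used here do not say in which cells or tissue these mark regions were mapped, and no test was made of these shares.

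**Figure D4:**
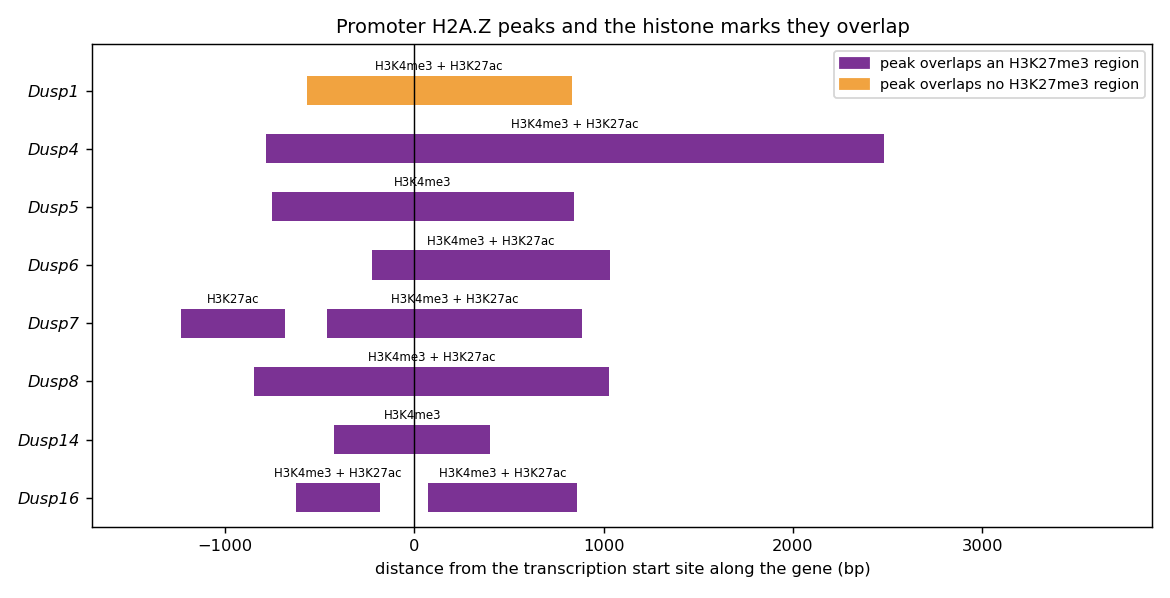
Promoter H2A.Z peaks of the 8 genes (bars, to scale) by distance from the transcription start site in bp along the direction of the gene, with the start at 0 and the overlapped H3K4me3 and H3K27ac regions written above each bar. All bars but that of Dusp1 overlap an H3K27me3 region, and Dusp7 and Dusp16 have 2 bars each.

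Nearly all promoter peaks had a lower H2A.Z value in conditioned than in naive mice in the authors' deposited table. Values are the authors' log2 differences between groups, with their p and FDR. They are given here as conditioned minus naive and old minus young, with no values per library. In old mice all 10 Dusp peaks were lower in conditioned hippocampi, with a median of -0.83 and a range of -1.56 to -0.33 in the authors' deposited table, against a median of -1.03 and 98.3% lower over all promoter peaks. One of the 10 passed the authors' FDR of 0.05, against 15.9% of all promoter peaks: the Dusp5 peak at -1.03 (authors' deposited table, FDR = 0.0306). An authors' p under 0.05 was found for 5 of the 10 peaks in the deposited table, Dusp1, Dusp5, Dusp8, Dusp14 and the upstream Dusp16 peak, against 42.5% of all promoter peaks. Dusp1 stood at -0.84 in the authors' deposited table (FDR = 0.0861).

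The lowest value in old mice was that of the upstream Dusp16 peak, -1.56, followed by -1.22 at the downstream Dusp16 peak (authors' deposited table, FDR = 0.138 and 0.177). Dusp14 stood at -0.99, Dusp8 and Dusp4 at -0.82 each and Dusp6 at -0.65 in the authors' deposited table. The Dusp7 peaks had the smallest differences there, -0.50 upstream and -0.33 at the start.

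In young mice 8 of the 10 Dusp peaks were lower in conditioned hippocampi, with a median of -0.51 in the authors' deposited table, against a median of -0.63 and 91.8% lower over all promoter peaks. None of the 10 passed the FDR of 0.05 in the authors' deposited table and none had an authors' p under 0.05, against 14.5% and 30.2% of all promoter peaks that were lower by these rules. The peaks with a positive value were that of Dusp1, 0.39 (authors' deposited table, FDR = 0.656), and the one at the Dusp7 start, 0.15 (FDR = 0.902). The Dusp1 value lay above 98.2% of promoter peaks in young mice and above 69.7% of them in old mice. The lowest was Dusp6 at -0.99 (authors' deposited table, FDR = 0.333). Dusp16 stood at -0.73 upstream and -0.18 downstream, Dusp14 at -0.70, Dusp4 at -0.62, the upstream Dusp7 peak at -0.55, Dusp5 at -0.46 and Dusp8 at -0.24. Whether the training differences of H2A.Z differ between the ages could not be tested without values per library.

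With age, H2A.Z in naive mice was higher at all 10 Dusp peaks, with a median of 0.67 and a range of 0.20 to 1.00 in the authors' deposited table, against a median of 0.44 and 89.2% higher over all promoter peaks. Dusp1 had the highest value, 1.00 (authors' deposited table, FDR = 0.267), above 94.7% of promoter peaks. The downstream Dusp16 peak followed at 0.92 (FDR = 0.467), Dusp8 at 0.87 (FDR = 0.350) and the Dusp7 start at 0.80 (FDR = 0.417) in the authors' deposited table. Dusp1 and Dusp8 had an authors' p under 0.05 in the deposited table, 2 of 10 peaks against 17.2% of all promoter peaks. In the table no peak of any gene passed an FDR of 0.05 in this comparison, where the smallest FDR was 0.209. In conditioned mice 6 of the 10 peaks were higher in old hippocampi, with a median of 0.21 in the authors' deposited table, against 0.10 and 62.1% higher over all promoter peaks. Dusp1 stood at -0.23 there. The naive age comparison and the training comparisons share groups, so these values are not independent of each other.

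**Figure D5:**
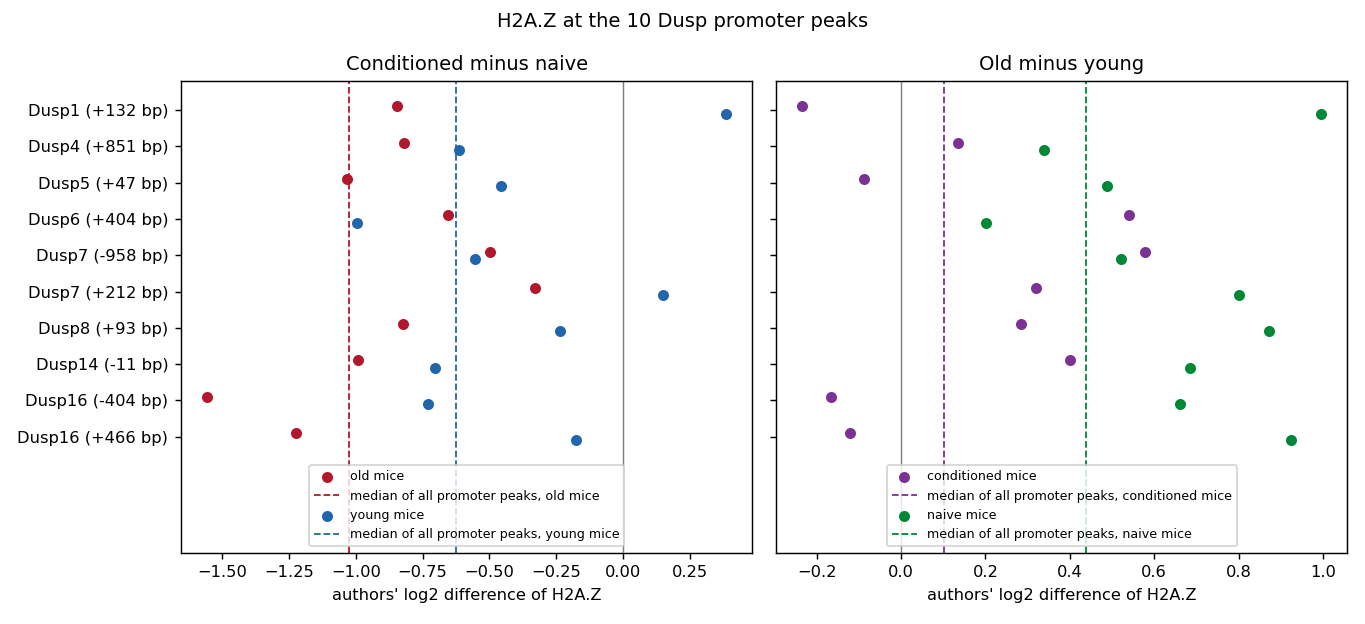
The authors' log2 differences of H2A.Z at the 10 Dusp promoter peaks (points), conditioned minus naive on the left and old minus young on the right, with the median of all 12204 promoter peaks as dashed lines. All points of old mice lie below 0 in the training panel, and Dusp1 in young mice lies above 0, at 0.39.

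RNA and H2A.Z at Dusp1 can be set side by side over the same contrasts. In old mice conditioned hippocampi had more Dusp1 RNA (log2 1.05) and an H2A.Z value of -0.84 in the authors' deposited table. In young mice they had more Dusp1 RNA by nearly the same amount (log2 1.10) and an H2A.Z value of 0.39. Between old and young naive mice Dusp1 RNA differed by 0.09 (95% CI -0.22 to 0.40) and H2A.Z by 1.00. In the authors' deposited table the FDR of these H2A.Z values was 0.0861 (old training), 0.656 (young training) and 0.267 (naive age). None of them passed. The medians over all promoter peaks were -1.03, -0.63 and 0.44 in the same order. RNA and H2A.Z came from different libraries. Whether the H2A.Z training difference at Dusp1 depends on age could not be tested without values per library.

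A further 7 H2A.Z peaks assigned to Dusp genes lay over 1000 bp from a start site, and 3 of them passed an FDR of 0.05 between young conditioned and young naive mice in the authors' deposited table, 2 lower and 1 higher. Of all peaks so far from a start site 11.1% were lower and 0.25% higher by that rule. The higher one, at chr7:142081846-142082985, 12868 bp into Dusp8, had a log2 difference of 1.91 (authors' deposited table, FDR = 0.0253) and was called as a peak in 3 of 3 young conditioned and 0 of 3 young naive libraries. In old mice its value in the authors' deposited table was 0.98 (FDR = 0.403), with a peak called in 2 of 3 conditioned and 1 of 3 naive libraries. Its log2 mean level in young naive mice was low, 3.63 against 7.20 at the Dusp1 promoter peak. Peak calls and differences came from the same libraries, so the calls here and below are not separate support.

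The lower ones were an intergenic peak 28701 bp upstream of Dusp5 and a peak 2349 bp upstream of Dusp4. The Dusp5 peak, at chr19:53500296-53500936, had -2.60 in young mice in the authors' deposited table (FDR = 0.00759) and was called in 0 of 3 conditioned and 2 of 3 naive libraries. Its log2 mean level in young conditioned mice was low, 2.59 against 7.58 at the Dusp1 promoter peak. The Dusp4 peak, at chr8:34804846-34805673, had -1.99 (authors' deposited table, FDR = 0.00406), was called in 1 of 3 conditioned and 3 of 3 naive libraries, and overlapped an H3K27me3 region. In old mice neither passed, at -0.58 for Dusp5 (FDR = 0.706) and -1.41 for Dusp4 (FDR = 0.327) in the authors' deposited table. The other distant peaks, 1436 bp upstream of Dusp6, 127627 bp upstream and 11083 bp downstream of the Dusp4 start and 40341 bp upstream of Dusp8, passed in no comparison. These assignments are the authors' nearest-gene labels, and no link between a distant peak and its gene was measured.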

How the data were processed

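RNA and H2A.Z chromatin immunoprecipitation were measured in mouse hippocampus, 3 libraries for each of 4 groups per assay, and 12 input libraries were not used here. For each RNA library the deposited file holds raw counts of reads by gene symbol, and for H2A.Z there is 1 table of consensus H2A.Z peaks on mm10. That table holds the authors' log2 differences and log2 mean levels per group, their p-values and FDR per peak, and other columns, deposited by the authors, with how many libraries of a group had the peak and how far genes and histone mark regions lie from it in bp. Per the submitters' processing notes the tools included FastQC, cutadapt and Trim Galore 0.4, and R 3.1.0, edgeR 3.8.6, DiffBind 1.12.2, MACS2 2.0.10, HTSeq 0.6.1p2, TopHat and Bowtie2 2.2.1 are listed too, beside the genome builds mm10 and mm9. The sources used here do not give the role of each, the gene annotation, the strand setting of counting or the scaling of H2A.Z.

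Counts were analysed with edgeR 4.0.16 in R 4.3.3: the filterByExpr filter, TMM normalization and 1 quasi-likelihood fit of the 4 groups over all genes, with Benjamini-Hochberg adjustment over the 14405 tested genes at 0.05. One fit was used so that the groups share an estimate of the spread. Standard errors and 95% intervals come from the F statistic and its degrees of freedom. The fit was tested on simulated data. Levels are CPM on TMM-scaled library sizes, and are not compared between genes because transcript lengths were not used. H2A.Z differences were described as deposited, with the sign turned so that naive is subtracted from conditioned and young from old. Groups marked T were read as conditioned by exclusion. Mean levels in old mice are shifted by a fixed amount from what the differences give (-0.215 for training in old mice), so levels were not compared between groups. Marker lists covered choroid plexus, nuclear-retained RNAs, endothelium, astrocytes, oligodendrocytes and their precursors, microglia, excitatory neurons and interneurons. Astrocyte markers summed to 6830 to 8046 CPM, oligodendrocyte markers to 2400 to 3854 CPM, precursor markers to 206 to 261 CPM and interneuron markers to 671 to 801 CPM over the 12 libraries.

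The members, lists and tests were chosen with earlier results of these data known. Besides the 8 members, the text names list genes with an adjusted p under 0.05 in a comparison or among the 3 smallest p under training or age, and the 5 genes most like a called member. The distant H2A.Z peaks of the members, the Fos and Arc values of single libraries and the use of 250-base promoters lie outside that rule. So do the uncalled early genes other than Egr3 and Etv4. Alternatives were DESeq2 1.42.0, upper-quartile factors, no low-count filter, only the groups compared, an adjusted p of 0.1, covariates for choroid plexus and nuclear-retained RNA, leaving out libraries, and for H2A.Z other distances, peaks and FDR thresholds. Other software was matplotlib 3.10.9, pandas 2.3.3, scipy 1.17.1, numpy 2.4.6 and Python 3.11.15, and limma 3.58.1.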

Additional observations from a re-analysis of the deposited data

How the results depend on the processing

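Of 167 other settings tried on the 11 counts of members that passed, 153 left the count within 1.5 times. Counts of 0 are among the 11 and none of them moved. All larger changes fell on the training counts of 1, so the 153 say little about the stability of those calls. The count of 1 member in young mice became 0 without young naive library 81 and old conditioned library 61 together, and 0 with only the 2 groups in the fit; leaving out single libraries gave 0 to 2. The count of 1 in old mice became 0 with the choroid plexus covariate, 0 without libraries 81 and 61 together, and leaving out single libraries gave 0 to 1; over both ages it was 1 to 3. For H2A.Z in old mice, 1 peak passed at an FDR of 0.05, 0 at 0.01 and 2 at 0.1, the second being Dusp1. Dusp1 RNA kept its direction under training in every setting (0.96 to 1.23 with 1 library left out, at either age). DESeq2 gave no adjusted p to the 8 members in old mice, and to 4 of them between conditioned old and young mice, with its filter; without it, a setting chosen after seeing the data, Dusp1 had 1.05 (adjusted p = 2.14e-06).

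Of 1328 other settings of 88 single values, 60 turned the sign, none with an adjusted p under 0.615. Without libraries 81 and 61 together, Dusp8 training in young mice was 0.055, Dusp14 training over both ages 0.0028, the age difference in naive mice -0.016 for Dusp1, -0.050 for Dusp5 and -0.073 for Dusp6, that in conditioned mice -0.051 for Dusp1, and that over both conditions -0.034 for Dusp1, -0.030 for Dusp6 and 0.038 for Dusp16. With the choroid plexus covariate, training was 0.0046 for Dusp8 in young and -0.0071 for Dusp7 in old mice, age -0.084 for Dusp6 in conditioned mice and, over both conditions, -0.027 for Dusp6 and 0.035 for Dusp16, and the interaction -0.11 for Dusp6 and -0.026 for Dusp7. With the nuclear RNA covariate, age was -0.076 for Dusp8 in naive mice, -0.0041 for Dusp4 in conditioned mice and 0.12 for Dusp5 over both conditions, and the interaction -0.0023 for Dusp6 and -0.00093 for Dusp7. Within 3000 bp, H2A.Z at Dusp6 with age in conditioned mice was -0.070. With single libraries left out, the values that turned had these ranges. For training in young mice they were -0.071 to 0.055 for Dusp8. For training in old mice they were -0.082 to 0.16 for Dusp16. For training over both ages they were -0.073 to 0.00071 for Dusp14. For age in naive mice they were -0.041 to 0.22 for Dusp1, -0.050 to 0.44 for Dusp5, -0.16 to 0.30 for Dusp6, -0.022 to 0.11 for Dusp8. For age in conditioned mice they were -0.051 to 0.099 for Dusp1, -0.0039 to 0.14 for Dusp4. For age over both conditions they were -0.00080 to 0.13 for Dusp1, -0.13 to 0.12 for Dusp5, -0.044 to 0.18 for Dusp6, -0.12 to 0.00075 for Dusp16. For the interaction they were -0.18 to 0.080 for Dusp1, -0.23 to 0.23 for Dusp6, -0.047 to 0.053 for Dusp7. The cause of these turns was not tested. No paired analysis was possible because no RNA library shares its title number with a library of another group.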
